A study of Mus musculus with 2 samples.

Results

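The 10 genes described here encode classical cadherins that have been studied in spinal motor pools, the groups of motor neurons that each supply 1 muscle. They were taken by symbol from the deposited gene tables, where all 10 matched 1 row each among 43346 gene rows. Cdh2 and Cdh4 encode type I cadherins, and Cdh6, Cdh7, Cdh8, Cdh9, Cdh10, Cdh11, Cdh12 and Cdh20 encode the 8 type II cadherins. Total RNA was sequenced from whole neural tubes of B6NCrl mice at postnatal day 0, with 1 tube from each of 2 pups of a single pregnancy. Both pups carried no treatment or allele that the labels name, and sex was not collected, so they form a single group (n = 2) in which nothing is contrasted. Expected counts, which are estimated read numbers, came to 26916916 in pup 1 and 40003518 in pup 2.

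Classical cadherins are calcium-dependent adhesion proteins that span the membrane once. Their outermost repeat binds a cadherin on the facing cell, and their cytoplasmic tail binds beta-catenin and p120-catenin. In chick spinal cord, combinations of type II cadherins mark motor pools and take part in their sorting, and in mouse N-cadherin and its catenin partners are needed for the orderly positions of motor neurons. The tissue here was not sorted, so a level is a sum over all cell types of the tube. In such bulk samples, fewer cells of a type and less RNA per cell cannot be told apart.

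Tissue markers were checked against the label. Of 4 Hox genes of spinal level all were detected, meaning a TPM (an abundance scaled by length and library) of at least 1 in both pups, and of 8 motor neuron genes all were detected. The motor neuron list had a median of 9.72 TPM, against 683 TPM for 4 general neuronal genes. The forebrain and midbrain genes Emx1 and Otx2 stood between 0 and 0.05 TPM, while Neurod6 stood at 33.15 TPM in pup 1 and 28.9 TPM in pup 2.

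The type I and type II genes differ at the start of the outermost repeat, and the coding bases there are shown because the comparison of type I with type II shares rests on this division. Each run holds 12 codons from GENCODE M21 transcripts on GRCm38, beginning at the first codon after the site where the precursor is cut, found by its arginine codon, a tryptophan codon 1 small or acidic residue after it and then a codon for valine, isoleucine or methionine. Capitals mark tryptophan codons. The type I gene Cdh4 (chr2:179797560-179797595, plus strand) had 1 such codon and the 8 type II genes had 2 each. For Cdh2, the other type I gene, 1 tryptophan codon was counted and the bases are not shown.
Cdh4: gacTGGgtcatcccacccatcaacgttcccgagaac
Cdh6: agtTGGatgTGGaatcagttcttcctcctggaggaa
Cdh7: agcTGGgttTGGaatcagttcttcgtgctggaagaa
Cdh8: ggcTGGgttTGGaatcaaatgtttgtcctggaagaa
Cdh9: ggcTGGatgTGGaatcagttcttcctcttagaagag
Cdh10: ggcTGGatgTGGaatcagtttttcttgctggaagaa
Cdh11: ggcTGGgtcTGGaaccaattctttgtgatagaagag
Cdh12: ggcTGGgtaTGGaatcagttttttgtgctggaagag
Cdh20: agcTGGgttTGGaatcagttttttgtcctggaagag

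These runs lie in coding exons at chr15:13091683-13091718 on the minus strand for Cdh6, chr1:109994321-109994356 on the plus strand for Cdh7, and chr8:99400759-99400794 on the minus strand for Cdh8. They lie at chr15:16778257-16778292 for Cdh9, chr15:18899751-18899786 for Cdh10 and chr15:21237843-21237878 for Cdh12, all on the plus strand. Those of Cdh11 and Cdh20 lie at chr8:102679645-102679680 on the minus strand and chr1:104934274-104934309 on the plus strand. Cdh9 and Cdh10, and likewise Cdh6, carry atg between the tryptophan codons, where the 5 other type II genes carry a codon that starts with gt. Over the whole coding sequence, aligned codon by codon, the type I pair shared 65.6% of bases. The 28 type II pairs shared 58.8% to 70.4%, and the 16 mixed pairs 47.4% to 51.5%. The most alike were Cdh6 and Cdh10 at 70.4%, Cdh9 and Cdh10 at 69.04% and Cdh6 and Cdh9 at 69.04%.

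All 10 cadherin genes were detected in both pups, where 63.8% of 21474 protein-coding genes and 35.5% of all gene rows were. Their summed level was 246 TPM in pup 1 and 229 TPM in pup 2. Single genes ranged over 11.3-fold in mean TPM, from Cdh8 at 52.1 ± 2.23 to Cdh20 at 4.59 ± 0.247 (SD, n = 2). The members' median was 22.3 TPM, beside 17.7 TPM for the protein-coding genes detected in both pups. The depth behind these values was 282 to 4853 expected counts per gene and pup.

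The type I genes held 32.4% of the summed TPM in pup 1 and 28.7% in pup 2, a mean of 30.6% ± 2.60 (SD, n = 2). The 8 type II genes held the other 67.6% and 71.3%. In sums, type I stood at 79.8 TPM in pup 1 and 65.8 TPM in pup 2, and type II at 166 and 163 TPM. The type II sum thus differed less between the pups than the type I sum. In expected counts, which are not divided by length, the type I share was 40.1% in pup 1 and 36.5% in pup 2. Cdh4 had the longest deposited transcript length of the 10 genes, 6105 bases in pup 1 and 6283 in pup 2.

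Cdh2, N-cadherin, is the broadly expressed type I cadherin of neural progenitors and neurons (chr18:16588877-16809246). It had 51.35 TPM in pup 1 and 43.67 TPM in pup 2, from 3626 and 4853 expected counts, the most of the 10 genes. Cdh4, R-cadherin (chr2:179442431-179899373), stood at 28.42 TPM in pup 1 and 22.11 TPM in pup 2. Both type I genes were thus higher in pup 1 on the TPM scale.

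Cdh8, a type II cadherin that in mouse is needed at the first spinal synapses of cold-sensing afferents, had the highest mean level (chr8:99024471-99416471). It had 53.63 TPM in pup 1 and 50.48 TPM in pup 2. It stood above Cdh2 within each pup, with deposited intervals that overlapped in pup 1 and lay apart in pup 2, while the ranges of the 2 genes over both pups overlapped. Cdh11, first known from osteoblasts and common in mesenchyme, followed at 36.71 TPM in pup 1 and 37.13 TPM in pup 2 (chr8:102632095-102785642). Cdh8, Cdh2 and Cdh11 together held 57.6% of the members' TPM in pup 1 and 57.3% in pup 2.

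Cdh6, Cdh10 and Cdh7 formed the middle of the order. Cdh6, first known from kidney and used in mouse retina for target matching, had 23.41 TPM in pup 1 and 24.19 TPM in pup 2. These values lay inside the range of Cdh4, so neither gene can be placed above the other. Cdh10, a brain cadherin, had 21.45 TPM in pup 1 and 20.16 TPM in pup 2, below both values of Cdh6. The deposited intervals of Cdh10 and Cdh6 overlapped in pup 1 and lay apart in pup 2. Cdh7, found in migrating neural crest of the chick, had 15.49 TPM in pup 1 and 15.08 TPM in pup 2, and lay apart from its neighbours on both sides.

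Cdh9, Cdh12 and Cdh20 were lowest and together held 6.39% of the members' TPM in pup 1 and 7.06% in pup 2. Cdh9, which in mouse hippocampus takes part in forming a specific class of synapse, had 5.24 TPM in pup 1 and 6.19 TPM in pup 2. Cdh12, a brain cadherin, had 5.72 TPM in pup 1 and 5.56 TPM in pup 2, within the range of Cdh9. Cdh20, known in chick as MN-cadherin for its place in motor neurons, had 4.77 TPM in pup 1 and 4.42 TPM in pup 2, below both. Its deposited interval overlapped those of Cdh9 and Cdh12 in pup 1 and lay below them in pup 2. The step from Cdh7 to Cdh9, 2.67-fold in mean TPM, was the widest between neighbours, and 3 of the 9 neighbouring pairs overlapped.

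**Figure D1:**
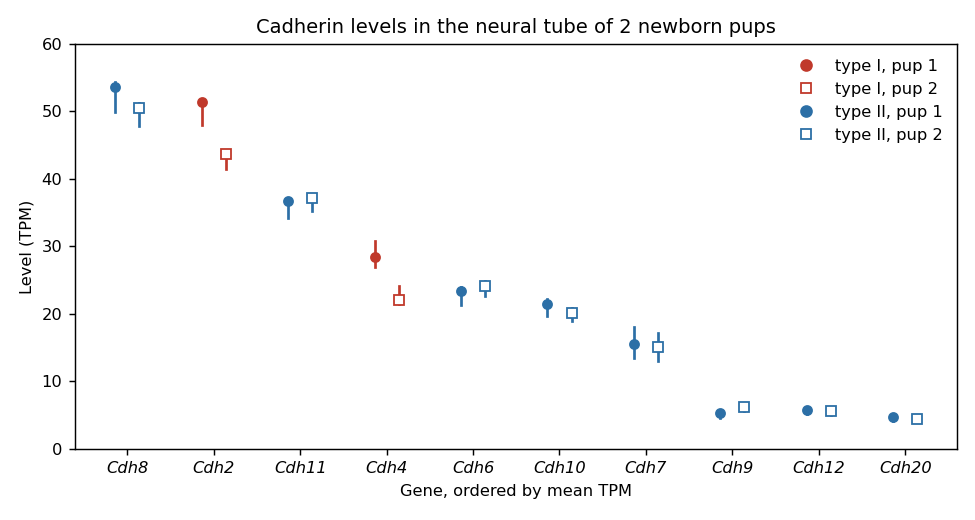
Level in TPM (y axis) of each cadherin gene (x axis, ordered by mean TPM), with filled circles for pup 1, open squares for pup 2 and bars for the deposited TPM intervals. Red marks type I and blue type II. Cdh8 and Cdh2 lead at 43.67 to 53.63 TPM, and Cdh9, Cdh12 and Cdh20 stay below 6.2 TPM.

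Several of these genes lie next to each other. On chromosome 15, Cdh6, Cdh9, Cdh10 and Cdh12 follow one another with 0 protein-coding genes annotated between them, at gaps of 3.56, 1.96 and 1.44 Mb. Their mean levels alternated along the chromosome, at 23.8, 5.71, 20.8 and 5.64 TPM. On chromosome 8, Cdh8 and Cdh11 are 3.22 Mb apart with 0 protein-coding genes between, and both were among the highest. On chromosome 1, Cdh20 and Cdh7 lie 4.99 Mb apart with 20 protein-coding genes between them.

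Transcript values changed the picture of Cdh8. The deposited transcript tables divide each gene's TPM among its annotated transcripts as a percentage. By TPM, Cdh8 was led in both pups by Cdh8-204, with 36.6% in pup 1 and 39.5% in pup 2. Cdh8-203, which has the longest coding sequence, held 26.0% and 25.8%. The deposited TPM intervals of these 2 transcripts overlapped slightly in pup 1 and lay apart in pup 2. In expected counts, which are not divided by length, Cdh8-203 had the most, 1081 in pup 1 and 1557 in pup 2. Cdh8-204 had 884 and 1384, on a length of 2711 bases against 4594 for Cdh8-203. In classical cadherins the 3′ end of the coding sequence encodes the cytoplasmic tail. The coding ends of the 4 main transcripts are shown because they part there, after base 2089 or 2126 of the coding sequence counted from the A of the start codon. Letters are on the minus strand of chromosome 8 (GRCm38, GENCODE M21). The first 12 bases of Cdh8-204 and of Cdh8-201 are also the first 12 of the Cdh8-203 run, and the first 12 of Cdh8-207 are the last lower-case ones of the Cdh8-203 run. Capitals mark coding bases past the point where Cdh8-201, Cdh8-204 or Cdh8-207 leaves Cdh8-203, and in the Cdh8-203 run those past base 2126.
Cdh8-203: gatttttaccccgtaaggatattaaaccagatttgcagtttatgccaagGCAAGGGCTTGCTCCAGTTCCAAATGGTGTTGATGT
Cdh8-204: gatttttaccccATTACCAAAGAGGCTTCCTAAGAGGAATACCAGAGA
Cdh8-207: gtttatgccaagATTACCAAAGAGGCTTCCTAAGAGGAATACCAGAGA
Cdh8-201: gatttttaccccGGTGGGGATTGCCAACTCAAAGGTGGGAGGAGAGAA

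Cdh8-204 and Cdh8-207 enter the same last exon, whose coding part begins at base 99024957 of chromosome 8. They do so from splice points 37 bases apart, which is not a multiple of a codon, so the shared letters are read in different frames. Cdh8-204 then has 44 coding bases of its own (chr8:99024914-99024957) and Cdh8-207 has 136 (chr8:99024822-99024957). Cdh8-201 has 59 (chr8:99029853-99029911). Against these, Cdh8-203 runs on for 308 coding bases after the first splice point and 271 after the second, to base 99030568, and encodes 799 codons, beside 711 in Cdh8-204, 754 in Cdh8-207 and 716 in Cdh8-201. The 3 transcripts with the other ends together held 64.98% of Cdh8 TPM in pup 1 and 66.9% in pup 2. In level, they summed to 34.9 TPM in pup 1 and 33.8 TPM in pup 2, and Cdh8-203 stood at 13.94 and 13.04 TPM. The pups' values do not overlap between these 2 classes.

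Cdh2 was the one gene of the 5 with several transcripts whose top transcript differed between the pups. In the background of 8481 genes with several transcripts and a mean of at least 5 TPM, 8.17% differed in this way. Cdh2-202, which starts 139 kb downstream of Cdh2-201 and has 171 fewer coding bases, held 55.1% in pup 1 and 47.5% in pup 2. Cdh2-201, with the longest coding sequence, held 40.4% in pup 1 and 48.5% in pup 2. In pup 2 the deposited TPM interval of Cdh2-201, 19.1 to 22.3, overlapped that of Cdh2-202, so the order of the 2 there is not resolved. In level, Cdh2-202 had 28.29 TPM in pup 1 and 20.73 TPM in pup 2, with deposited intervals of 24.4 to 29.9 and 18.4 to 22.3 that lay apart. Intervals lay apart for 16.7% of 22158 transcripts with a mean count of at least 100. Cdh2-201 had 20.74 TPM in pup 1 and 21.20 TPM in pup 2, and its intervals overlapped. The higher gene level of Cdh2 in pup 1 was thus carried by the shorter transcript in these estimates.

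Cdh7 was led in both pups by Cdh7-204, annotated as a target of nonsense-mediated decay, with 28.8% in pup 1 and 33.2% in pup 2. The 3 transcripts with the full coding sequence of 2355 bases held 30.9% of Cdh7 TPM in pup 1 and 22.4% in pup 2, or 4.80 and 3.38 TPM. The largest of these in pup 1, Cdh7-209, had 2.66 TPM there and 0.62 TPM in pup 2, but its deposited intervals reached down to 0.0677 and 5.15e-05, so the split is poorly fixed. A further 5 transcripts with shorter annotated coding sequences held 40.3% in pup 1 and 44.4% in pup 2. Among them Cdh7-207 had 2.72 TPM in pup 1 and 2.80 TPM in pup 2, from 28.85 and 45.71 expected counts. Its deposited intervals, 0.622 to 5.24 TPM in pup 1 and 0.668 to 4.65 TPM in pup 2, overlapped those of Cdh7-204. The lead of Cdh7-204 over Cdh7-207 is thus not resolved.

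Cdh10 and Cdh4 were simpler. Cdh10-202 held 82.9% of Cdh10 in pup 1 and 85.6% in pup 2, and 3 retained-intron transcripts of Cdh10 summed to 8.45% and 8.65%. Cdh4-201 held 94.96% of Cdh4 in pup 1 and 98.2% in pup 2. The other 5 genes, all type II, have 1 transcript each in the deposited tables, so their share is 100% by construction. For some of them the later M21 annotation is longer. The deposited length of Cdh6 was 2632 bases and its longest M21 transcript is 8167 bases, and for Cdh11 these were 4216 and 5647 bases. Bases outside the deposited models add no counts to these genes, and what this does to the level per length was not tested.

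**Figure D2:**
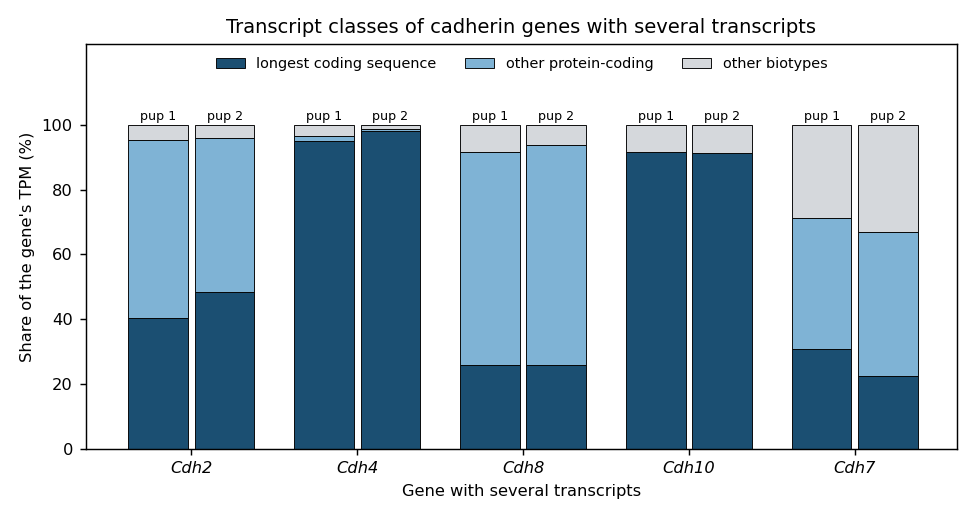
Share of each gene's TPM in percent (y axis) for the 5 genes with several transcripts (x axis), with pup 1 left and pup 2 right. Dark blue is the transcripts with the longest coding sequence of the gene, light blue other protein-coding transcripts and grey other biotypes. The dark part is 94.96% and 98.18% in Cdh4 but 26.0% and 25.8% in Cdh8.

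Counting only transcripts with the longest coding sequence of each gene gave another order. The 5 genes with 1 deposited transcript, Cdh6, Cdh9, Cdh11, Cdh12 and Cdh20, keep their whole TPM here by construction. The order thus depends in part on how many transcripts are listed for a gene. Cdh11 then led at 36.9 ± 0.297 TPM, followed by Cdh4 at 24.4 ± 3.73, Cdh6 at 23.8 ± 0.552 and Cdh2 at 20.97 ± 0.325 (SD, n = 2). Cdh8 was sixth at 13.5 ± 0.636 TPM, and Cdh7 had the lowest mean at 4.09 ± 1.00 TPM. The values of Cdh4 overlapped those of Cdh6, those of Cdh9 overlapped those of Cdh12, and those of Cdh7 overlapped those of Cdh20, at 4.77 TPM in pup 1 and 4.42 TPM in pup 2, so these places are not resolved. On this measure the type I share was 29.5% in pup 1 and 27.6% in pup 2. The choice of this measure was made after the transcript values were seen.

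**Figure D3:**
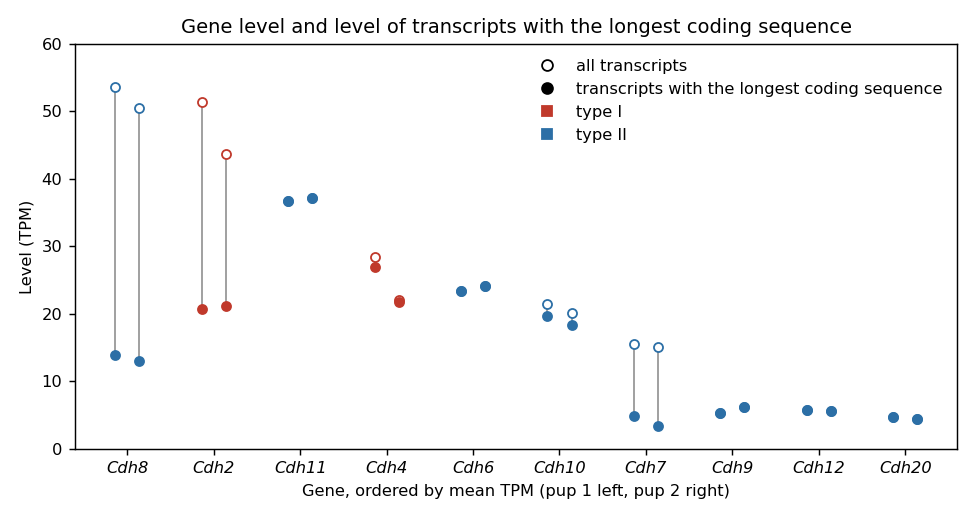
Level in TPM (y axis) of each cadherin gene (x axis), with open circles for all transcripts and filled circles for the transcripts with the longest coding sequence, pup 1 left and pup 2 right of each pair. Red marks type I and blue type II. The vertical gap is widest in Cdh8, where 53.63 TPM stands over 13.94 TPM in pup 1 and 50.48 over 13.04 TPM in pup 2.

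Between the pups the cadherin genes differed little. Ratios are pup 1 over pup 2 in CPM (counts scaled to library size) after TMM scaling, and with a single library per pup no replicate checks them and no test was made. None of the 10 genes reached a 2-fold difference, where 0.473% of the 13544 genes averaging 100 or more counts did. The widest ratios were those of Cdh9 at -0.31 and Cdh4 at 0.25 on the log2 scale, and Cdh2 stood at 0.13. The other 7 lay between -0.12 and 0.04. Scaled to spike-in totals instead, which shifts every gene by 0.29, Cdh9 stood at -0.015, Cdh4 at 0.54 and Cdh2 at 0.43. With TMM scaling the median over the members was -0.0046, beside -0.0011 over all 13544 genes.

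The deposited TPM intervals lay apart between the pups for Cdh2 and Cdh4 alone, both higher in pup 1. That is 2 of 10, where 23.6% of the 13544 genes had intervals apart, and 15.8% had them apart and higher in pup 1, so the members' share is near that of all genes. Cdh2 had an interval of 48.0 to 51.4 TPM in pup 1 and 41.5 to 44.1 TPM in pup 2. Cdh4 had 26.9 to 30.8 TPM in pup 1 and 21.4 to 24.1 TPM in pup 2. Those of Cdh9, at 4.52 to 5.69 TPM in pup 1 and 5.55 to 6.59 TPM in pup 2, overlapped slightly. With exact Poisson intervals on the counts, Cdh9 also lay apart and 3 of 10 genes did, where 29.8% of the 13544 genes did. The intervals cover estimation error and not the spread between animals.

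Some markers of other tissue differed more than the cadherins. The sensory ganglion genes Avil, P2rx3 and Scn10a stood at 0.70, 0.58 and 0.19 TPM in pup 1 against 8.55, 4.95 and 1.35 TPM in pup 2, and each passed 2-fold. The 4 fibroblast and meningeal genes summed to 269 TPM in pup 1 and 341 TPM in pup 2. Col1a1 held the largest part of both sums, at 185.55 TPM in pup 1 and 232.85 TPM in pup 2. Intervals lay apart for 4 of these 4 genes, where 23.6% of the 13544 genes had them apart. The trunk Hox genes Hoxc6 and Hoxc8 also passed 2-fold, at 10.29 and 22.83 TPM in pup 1 against 18.25 and 52.01 TPM in pup 2. The lumbosacral gene Hoxd10 did not pass it, at 104.99 TPM in pup 1 and 63.16 TPM in pup 2. The 8 motor neuron genes summed to 173 TPM in pup 1 and 215 TPM in pup 2. Prph held the largest part of both sums, at 94.76 TPM in pup 1 and 126.37 TPM in pup 2. Chat and Lhx3 were lower in pup 2, at 4.04 and 3.08 TPM against 4.17 and 4.32 TPM in pup 1. The others in this list were higher in pup 2 on the TPM scale. Among them Isl2, also a sensory neuron gene, was the 1 past 2-fold, at 3.57 and 8.9 TPM. The part of these differences in the cadherin ratios was not tested.

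**Figure D4:**
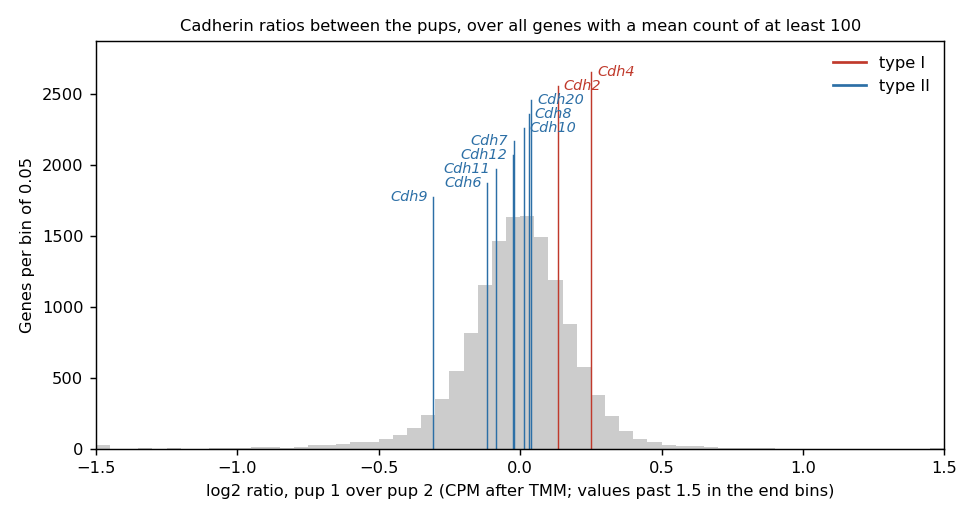
Number of genes per bin of 0.05 (y axis) by log2 ratio of pup 1 over pup 2 (x axis) for the 13544 genes averaging 100 or more counts, in grey, with a line for each cadherin gene at its own ratio. Red marks type I and blue type II, and line heights carry no value. The 10 lines lie between -0.31 and 0.25.

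The remaining classical cadherins had a lower median. Of 8 further genes, 7 were detected in both pups, with a median of 8.27 TPM, and the 10 members held 79.8% of the TPM of all 18 classical cadherin genes in pup 1 and 78.9% in pup 2. Cdh22, a type II cadherin of brain, was highest at 15.48 TPM in pup 1 and 14.67 TPM in pup 2. Cdh19, a Schwann cell lineage cadherin, was lowest and reached 1 TPM in pup 2 alone, at 0.87 TPM in pup 1 and 1.31 TPM in pup 2. None of the 7 with a mean count of at least 100 passed 2-fold, where 0.473% of the 13544 genes did. Cdh1 came closest, at 2.73 TPM in pup 1 and 4.77 TPM in pup 2, a log2 ratio of -0.94. Deposited intervals lay apart for 2 of the 7, Cdh1 and Cdh3, where 23.6% of the 13544 genes had them apart.

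The intracellular partners were all present. All 9 catenin and linker genes were detected, where 63.8% of protein-coding genes were, with a median of 26.1 TPM. None of the 9 passed 2-fold, where 0.473% of the 13544 genes averaging 100 or more counts did. Intervals lay apart for 2 of the 9, beside 23.6% of those genes. Ctnnb1, beta-catenin, was highest at 171.98 TPM in pup 1 and 164.94 TPM in pup 2. Ctnna3, an alpha-catenin best known from heart, was lowest at 7.17 TPM in pup 1 and 6.09 TPM in pup 2. Afdn, which encodes afadin, the linker of nectins to actin, stood at 91.51 TPM in pup 1 and 95.94 TPM in pup 2. All 4 nectin genes were detected, from Nectin2 at 46.78 TPM in pup 1 and 42.05 TPM in pup 2 to Nectin4 at 5.59 and 4.45 TPM.

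**Figure D5:**
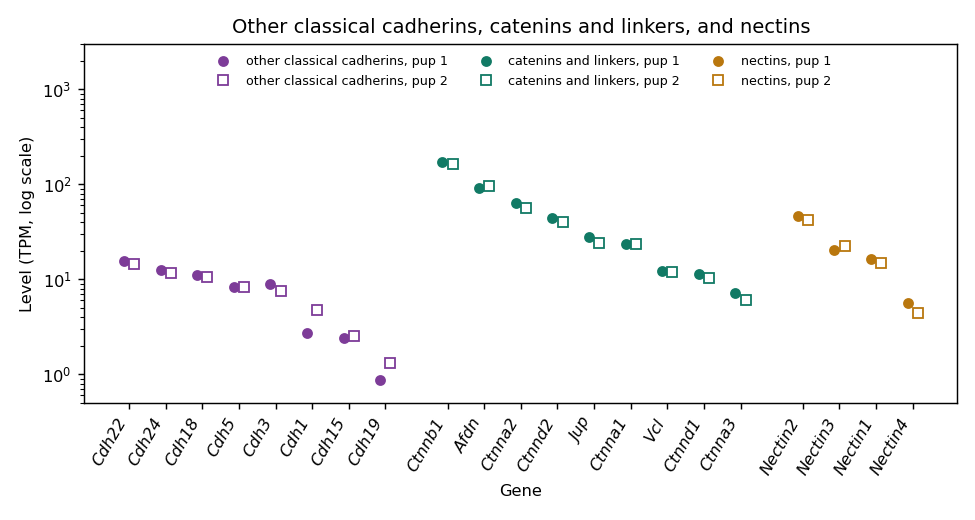
Level in TPM on a log scale (y axis) of 8 other classical cadherin genes, 9 catenin and linker genes and 4 nectin genes (x axis), with filled circles for pup 1 and open squares for pup 2. Ctnnb1 stands highest at 171.98 and 164.94 TPM, and Cdh19 lowest at 0.87 and 1.31 TPM.

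Proteases and motor pool factors completed the lists. Of the proteases that cut cadherins, Adam10, which sheds the extracellular part, had 31.6 TPM in pup 1 and 33.24 TPM in pup 2, and Furin, which removes the propeptide, had 5.65 and 6.28 TPM. Of 7 transcription factor and enzyme genes tied to motor columns and pools, 6 were detected, where 63.8% of protein-coding genes were. None of the 6 with enough counts passed 2-fold, where 0.473% of the 13544 genes did. Aldh1a2, a retinoic acid synthesising enzyme of limb motor neurons and also of meninges, had the highest mean, at 39.28 TPM in pup 1 and 47.40 TPM in pup 2. Etv4, an ETS factor that in mouse controls the position of certain limb motor pools, stood at 39.54 TPM in pup 1 and 30.81 TPM in pup 2. Runx1 was lowest at 0.97 TPM in pup 1 and 0.99 TPM in pup 2. With 2 samples of 1 group, likeness of pattern between these genes and the cadherins could not be measured.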

How the data were processed

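Per the file headers and deposited notes, the authors estimated expected counts and TPM per gene and transcript on mm10 with GENCODE M4, under RSEM's column names. The deposited percent column splits a gene's TPM among transcripts. The deposited bounds of TPM intervals were used as a score, and their level is not given in the sources used here, nor are aligner, version and strand. Without a strand setting, reads of overlapping antisense genes cannot be told apart. The opposite-strand genes over the members that the deposited tables hold had mean counts of at most 7. These counts set no limit on antisense reads that may have been counted for a cadherin gene.

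Expected counts were rounded for ratios. TMM scaling used edgeR 4.0.16 (R 4.3.3) on genes averaging 10 or more counts, with a prior count of 2, and DESeq2 1.42.0 gave other size factors. Rows for 26248 tRNAs, 96 spike-ins and phiX (0.0013% and 0.0015% of counts) were left out. Symbols (42462 rows), coordinates, biotypes and coding sequences were taken from GENCODE M21 (GRCm38, equal to mm10), its coding bases in place of RefSeq proteins. Alignments used biopython 1.88 (gap costs 11 and 1). Steps were tested on simulated data. The named genes are all members, and of other lists the highest, the lowest, those detected in 1 pup alone or past 2-fold, and a few named after their values were seen. A few genes that this rule takes are not reported here. Members and lists were chosen with earlier results of these data known. No test between groups was possible.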

Additional observations from a re-analysis of the deposited data

How the results depend on the processing

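The type I share of the members' TPM, 30.6%, was 38.3% in expected counts not divided by length, and the single pups gave 28.7% and 32.4%. It moved by less than 1 SD with posterior mean TPM, protein-coding transcripts and, added after seeing the data, transcripts with the longest coding sequence. Over all 18 classical cadherins, with Cdh1, Cdh3 and Cdh15 added to the type I genes, the type I share was 29.1%. The share of Cdh2 and Cdh4 alone on that base is not given here. The count minimum left out no member, so it could not change the share. The counts of detected genes, overlapping neighbours, 2-fold differences, intervals apart and shared top transcripts stayed within 1.5 times under every alternative tried. Alternatives that changed only the count filter could not move them, because all 10 members average 100 or more counts. With exact Poisson counting intervals 3 genes lay apart, Cdh9 being the third, where 29.8% of all genes did. Spike-in totals (335 and 603 counts) shift every log2 ratio by 0.29, and then 4 ratios turn positive: Cdh6 to 0.18, Cdh7 to 0.27, Cdh11 to 0.21 and Cdh12 to 0.27. Cdh9 then stands at -0.015 and Cdh4 at 0.54. On log2(TPM + 0.1), Cdh7 and Cdh12 turn to 0.038 and 0.040. These signs are thus not resolved. No paired analysis was possible because the pups form 1 group. A count of 0 would allow 0.111 CPM in pup 1 and 0.0750 in pup 2, for counting error only.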
